A study of Homo sapiens with 6 samples.

Results

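To ask which nucleotides of mRNA change with the cation present during folding, the RNA refolded in K+ was compared with the RNA refolded in Li+, at every base. Transcripts entered when their summed reverse transcriptase (RT) stops divided by the largest listed position reached 1 stop per nucleotide in both libraries. This held for 2045 of 15739 transcripts. In K+ alone 2052 transcripts passed, and in Li+ alone 2739. The lowest smaller mean among those kept was 1.000 stop per nucleotide and the highest among those left out was 0.9997.

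The RNA came from U2OS, a human osteosarcoma cell line, and was selected for poly(A). For one library it was refolded and methylated with dimethyl sulfate (DMS) in 150 mM K+, and for the other in 150 mM Li+. It was heated and cooled slowly in that cation first. Per the labels, both were then reverse transcribed in 150 mM K+, so that by the labels the cation differed only during folding and modification. The study's methods give K+ or Li+ for RT without saying which library had which. The protocols in the labels give the DMS dose for living cells but none for these test tube reactions. There was 1 library a side and no replicate, so no test of the cation effect could be run, and every interval below covers counting error only, not the spread between cultures. The 4 other libraries of the study were RNA without DMS, with RT in K+ or in Na+ by the labels, and unstressed and starved cells (starved for 2 h) treated with 8% DMS for 5 min. File names and labels of the pair without DMS contradict each other, so these are called by their labels.

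An RNA G-quadruplex (rG4) is a stack of square planar layers of 4 guanines each, held by a monovalent cation in its centre. K+ stabilizes the stack well and Li+ poorly. A folded rG4 halts RT at its 3′ edge, which the enzyme meets first. DMS methylates A and C on the face used for base pairing, where the methyl group halts RT and marks an unpaired base. It also methylates the N7 position of G, which rG4 folding needs, so G methylated while open cannot fold again during RT.

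Summed listed RT stops were 21480565 in K+ and 31174408 in Li+, within a range of 12999691 to 35371061 over the 6 libraries. The 2045 transcripts held 76.4% of the stops in K+ and 73.3% of those in Li+. Markers of mesenchymal cells were present, with VIM at 38.7 stops per nucleotide in K+ and 54.6 in Li+, LGALS1 at 32.4 and 42.1, SPARC at 6.48 and 8.25, CAV1 at 5.99 and 8.28, and S100A6 at 4.04 and 5.50. CD44 reached 0.775 and 1.09, and the bone regulator RUNX2 only 0.0175 and 0.0366. The epithelial markers EPCAM (0.0162 and 0.0411) and CDH1 (0 and 0.000808) were near 0, and PTPRC and ALB were not listed. A listed stop count was at least 3, and an unlisted position was counted as 2, the most it can hold.

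The sequences below carry the main patterns. Each is 30 nt of the transcript, written 5′ to 3′ with 24 nt before the site and 5 nt after it, and the capital marks the base with the RT stop. Bases were taken from the deposited files, with gaps filled from the GENCODE transcript of the same sequence, and coordinates are GRCh37 (hg19). The first 6 were the 4 largest K+ excesses at G by a rule that allowed 1 site per transcript, and the G sites of APP and LMNB1, named for rG4s in the study. Runs of G precede the capital G in all 6.

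SET, G at 1667, chr9:131457472-131457501, plus strand: ggguggguuugagauguuugggugGguuaa
NUCKS1, G at 1659, chr1:205686747-205686776, minus strand: ccuuguagggagggugggcaauggGguuac
RPS9, G at 614, chr19:54711392-54711421, plus strand: caagaagggccaggguggggcuggGgcugg
PPP3R1, G at 2902, chr2:68406093-68406122, minus strand: guguguggggguggguaagggaggGgaugg
APP, G at 3249, chr21:27253240-27253269, minus strand: acuuuuacggggcggguggggaggGgugcu
LMNB1, G at 3303, chr5:126172588-126172617, plus strand: ggagggagguggagggagggaaggGuuucu

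The next 5 show A or C that lies directly 3′ of a run of at least 3 G. They are shown because the K+ excess extended to this base. EEF2 and RAD23B had at least 100 stops in both libraries together, and TAF15, UBE2E1 and IPO7 between 50 and 100.

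EEF2, A at 2924, chr19:3976283-3976312, minus strand: ucggggagggggaggcgggaugggAcaccc
RAD23B, A at 2206, chr9:110092495-110092524, plus strand: cuuggggugggaggggagaaagggAaccuu
TAF15, A at 2036, chr17:34174067-34174096, plus strand: uuuuauuugggugggagggcugggAcaguu
UBE2E1, A at 894, chr3:23932156-23932185, plus strand: uuugaaggggucagggagggugggAguugg
IPO7, A at 3467, chr11:9466925-9466954, plus strand: auuuuggggguggggggggaugggAgguac

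The last 4 show sites with fewer stops in K+ than in Li+. None of these 4 sites lies in or near a motif of 4 runs of at least 3 G. For 4 runs of at least 2 G, the ACTB site lies in a motif and the GAPDH site 2 nt from one. The RPL4 and GPX1 sites lie 501 and 392 nt away.

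GAPDH, C at 834, chr12:6646860-6646889, plus strand: cgcugccaaggcugugggcaagguCauccc
RPL4, C at 548, chr15:66794184-66794213, minus strand: aguugaagauaaaguugaaggcuaCaagaa
ACTB, C at 1748, chr7:5566838-5566867, minus strand: ggucucccugggaguggguggaggCagcca
GPX1, C at 836, chr3:49394672-49394701, minus strand: accaccucgagaugggugcuggucCuguug

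For each nucleotide the stop count was divided by the mean count of its transcript in that library, which gives the normalised stop. Positions with at least 100 stops in K+ and Li+ together were compared, in all 45657 positions on 687 of the 2045 transcripts. The other 1358 transcripts had no position that deep. Of the compared positions, 31693 were A, 7967 were C, 4929 were G and 1068 were U.

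Summed over the 2045 transcripts, the 2 cations gave nearly the same shares of stops by base. In K+, A took 62.7% of the stops on these transcripts, C 18.8%, G 13.9% and U 4.60%. In Li+ the shares were 61.5%, 19.0%, 13.9% and 5.71%. In the libraries without DMS, U took 23.5% to 24.1% of stops and A 33.3% to 34.6%, so A was raised with DMS in both cations. Over transcripts, the median share of stops at A and C was 84.4% in K+ and 82.6% in Li+, and 1838 of 2045 transcripts had the larger share in K+. At the 1299599 positions listed in both libraries the order turned, with 83.3% in K+ and 83.7% in Li+. The Li+ library listed 3721260 positions and the K+ library 2768245. On the 2045 transcripts, strong stops, with a normalised stop of at least 10, numbered 20649 in K+ and 16837 in Li+. Of these, 475 in K+ (2.30%, 95% Wilson interval 2.10% to 2.51%) and 308 in Li+ (1.83%, 1.64% to 2.04%) were G.

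The median log2 of normalised stops in K+ over Li+ was -0.01 at A, -0.04 at C, 0.02 at G and -0.27 at U. These medians used each library's own last listed position as the length of the transcript. That length proved unequal for some transcripts, as described next, and with 1 common length in both libraries the medians were 0.00, -0.01, 0.06 and -0.14. U stayed below 0 on both scales, but it was 0.00 with the deposited ratio, which divides each base by its own mean. On the scale of each library's own length the sign at G was not stable either, with 0.02 at 100 stops and -0.03 at positions with at least 200 stops. The median at G was 0.00 with the deposited ratio, and with the common length it was 0.06 at minimums of both 100 and 50 stops.

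At least 2-fold more normalised stops in K+ were found at 98 positions, 0.215% of the compared positions. At least 2-fold more in Li+ were found at 274 positions, 0.600% of the compared positions. With the common length, chosen after seeing the data, the counts were 86 (0.188%) in K+ and 78 (0.171%) in Li+. The 86 positions higher in K+ were 31 A, 25 C, 30 G and 0 U. The 78 higher in Li+ were 35 A, 34 C, 4 G and 5 U. G thus took 34.9% (Wilson interval 25.7% to 45.4%) of the positions higher in K+, against 10.8% of all compared positions, and 5.13% (2.01% to 12.5%) of those higher in Li+. The K+ share depended on the limits. With a minimum of 50 stops it was 18.0%, against 11.6% of those positions. On the scale of each library's own length it was 30.6%, and it was 14.1% with Li+ thinned to the depth of K+, 13.9% with a 1.5-fold limit, and 51.9% with a 3-fold limit. C took 29.1% of the former and 43.6% of the latter, against 17.4% of all compared positions.

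**Figure D1:**
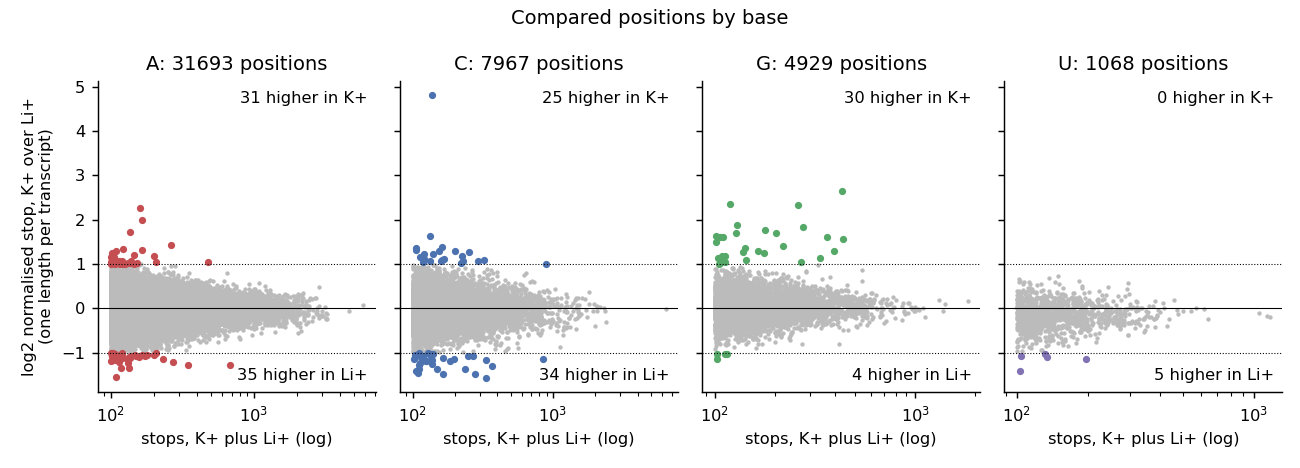
Log2 normalised stop in K+ over Li+ (common length) against the stops in both libraries (log axis), 1 panel per base, 1 point per compared position, with coloured points past 2-fold (dotted lines). G has 30 points above the upper line and 4 below the lower, whereas A has 31 and 35, C has 25 and 34, and U has 0 and 5.

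The 2 libraries spread more than counting allows. Among positions with 100 to 200 stops, the SD of the log2 ratio was 0.33, where counting error gives 0.26. With 400 stops or more it was 0.23 and counting gives 0.12. The exact binomial interval of the ratio excluded 1 at all 86 and all 78 positions. The 100-stop minimum and the 2-fold limit fix this in advance, so it adds nothing for the sites. The interval lay wholly past 2-fold at only 18 of the positions higher in K+ (12 G, 4 A and 2 C) and at 3 of those higher in Li+. Most A and C sites thus cannot be told from a ratio under 2 on counting error alone.

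Much of the Li+ excess on the first scale came with transcripts whose listed lengths differed. The last listed position differed by more than 0.5 on the log2 scale in 29 of the 2045 transcripts, and 11 of these had 347 compared positions. They held 156 of the 274 positions higher in Li+ and 12 of the 98 higher in K+. In UQCRQ, a small subunit of respiratory complex III, the last listed position was 410 in K+ and 1345 in Li+. Its median log2 ratio was -1.71, and 65 of its 67 compared positions were at least 2-fold higher in Li+. With the common length its median was 0.01 and none was.

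The same held for COXFA4, a subunit of cytochrome c oxidase (531 and 1276, 34 positions), for PSMA5, an alpha subunit of the proteasome (1077 and 2271, 28 positions), and for CNBP, a nucleic acid binding zinc finger protein (1690 and 3371, 21 positions). None of these positions passed 2-fold with the common length. RPS10-NUDT3, a readthrough transcript that shares sequence with the ribosomal protein gene RPS10, showed the reverse, with 519 in K+ and 91 in Li+. All 10 of its compared positions were 2-fold higher in K+, with a median of 2.46, and the median was -0.05 with the common length. EEF1A1, the factor that brings aminoacyl-tRNA to the ribosome, had 20 positions higher in Li+ in 16 separate stretches on the first scale, the most stretches of any transcript. Its median moved from -0.44 to 0.00 with the common length, and none of its positions then passed 2-fold.

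Several sites that the naming rule picked were of this kind. UQCRQ had C at 59 with 61 stops in K+ and 148 in Li+, which was 5.65-fold more in Li+ on the first scale and 1.72-fold with the common length. PSMA5 had A at 973 with 29 and 77 stops (4.03-fold and 1.91-fold), COXFA4 had A at 494 with 56 and 116 (3.65-fold and 1.52-fold), and CNBP had A at 1536 with 31 and 75 (3.43-fold and 1.72-fold). RPS10-NUDT3 had C at 79 with 157 stops in K+ and 168 in Li+, 7.09-fold more in K+ on the first scale and 1.24-fold with the common length. All later ratios, medians and counts use the common length unless stated, and the normalised stop of a single site in 1 library uses that library's own length.

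**Figure D2:**
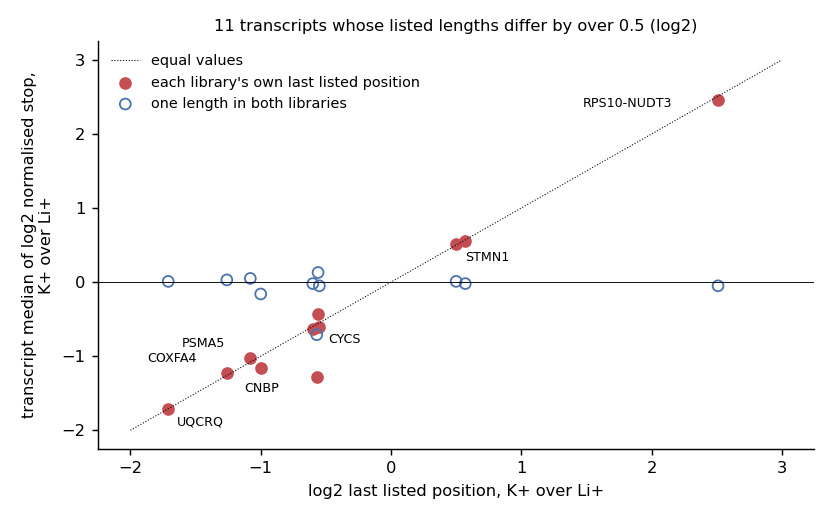
Transcript median of the log2 normalised stop, K+ over Li+, against the log2 ratio of the last listed positions, for the 11 transcripts whose ratio differs from 0 by over 0.5. Filled points use each library's own last listed position and lie near the dotted line of equal values from -1.71 in UQCRQ to 2.46 in RPS10-NUDT3, except NAA50 at -1.28; open points use the common length and lie near 0 except NAA50, with 1 compared position, at -0.71 and CNBP at -0.16.

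The largest G site was in SET, a histone chaperone and inhibitor of protein phosphatase 2A. G at 1667, in the 3′ UTR in the last of 8 exons, had 355 stops in K+ and 77 in Li+. The normalised stop was 29.2 in K+ and 4.65 in Li+, a 6.28-fold excess (95% exact interval 4.90 to 8.15). NUCKS1, a chromatin protein, followed with G at 1659 in its 3′ UTR (93 and 26 stops, 5.12-fold, 3.28 to 8.24). RPS9, a protein of the small ribosomal subunit, had G at 614 in its coding sequence (206 and 55 stops, 5.07-fold, 3.75 to 6.96). PPP3R1, the regulatory subunit of calcineurin, had G at 2902 (93 and 36 stops, 3.72-fold, 2.50 to 5.62). The interval lay wholly past 2-fold at all 4.

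APP encodes the amyloid precursor protein. Its G at 3249 had 199 stops in K+ and 76 in Li+ (3.58-fold, 2.73 to 4.72), and the next G at 3250 had 70 and 42 (2.28-fold, 1.53 to 3.42). The other 4 compared positions of APP were not 2-fold apart. LMNB1, a protein of the nuclear lamina, had a single compared position, G at 3303, with 70 and 32 stops (3.11-fold, 2.02 to 4.88). ACTB, cytoplasmic actin and the study's control, had 493 compared positions, 104 of them G, and none was 2-fold higher in K+. Its strongest G, at 1290, had 277 stops in K+ and 435 in Li+, a ratio of 0.825 (0.707 to 0.962). APH1A, a subunit of gamma-secretase, had no compared position, and HIRA and CDKN1B fell below the transcript minimum, at 0.306 and 0.675 stops per nucleotide in K+.

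Other G sites on the list were in SUPT4H1, an elongation factor of RNA polymerase II (G at 649, 129 and 50 stops, 3.40-fold), AHNAK, a giant scaffold protein (G at 18395, 140 and 63 stops, 3.26-fold), HNRNPK, a poly(C) binding protein (G at 1850, 253 and 109 stops, 3.07-fold), and ACTR2, a subunit of the Arp2/3 complex (G at 1842, 92 and 50 stops, 2.55-fold). They lie in 3′ UTRs.

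Of the 30 G sites higher in K+, 21 (70.0%, Wilson interval 52.1% to 83.3%) were in 3′ UTRs, against 17.5% of compared G. Coding sequence held 7 (23.3%) against 69.1% of compared G. A strict motif was searched for on the transcript strand, 4 G runs, each of 3 or more, split by loops of 1 to 7 nt of any base. A permissive one had 4 G runs, each of 2 or more, and loops of 1 to 9 nt, and includes the strict one. Overlapping matches were merged. Strict motifs numbered 410 on 320 transcripts, and permissive ones 13477 on 1924 of the 2045. Of the 30 G sites, 20 (66.7%, 48.8% to 80.8%) lay in a strict motif and 24 in a permissive one, and SET lay 18 nt away from one. Of all compared G, 1.03% lay within 15 nt of a strict motif.

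Most motifs were too thinly covered to compare. The last G of a strict motif, where RT arrives first, had at least 100 stops in 22 of the 410 motifs. Its median log2 ratio was 1.22 (95% interval over positions 0.54 to 1.61), and 13 of 22 were 2-fold higher in K+ and 0 in Li+. G inside strict motifs had a median of 0.61 (29 positions, 7 of them 2-fold higher in K+). G on the same transcripts more than 60 nt away had 0.07 (282 positions, 0 higher). A minimum on the summed stops lets a site pass through the library in which it is high, so the minimum was also lowered. With at least 50 stops the median at the last G was 1.08 (0.66 to 1.40, 53 positions), 30 of them were 2-fold higher in K+, and the values ran from -0.57 to 2.49 with 47 above 0.

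Permissive motifs, which include the strict ones, gave smaller medians. Their last G had a median of 0.13 (0.01 to 0.27, 72 positions), and 9 of the 72 were 2-fold higher in K+ where 0.609% of all compared G were. The last G of runs of exactly 3 G had 0.22 inside permissive motifs (65 positions, 12 higher) and 0.06 outside (118 positions, 0 higher). Among the earlier G of such runs, 3 of 67 inside motifs and 1 of 151 outside were 2-fold higher in K+. The same strict motif written with C in place of G was used as a control. With at least 100 stops it gave a median of 0.00 at A and C inside it (25 positions) and no 2-fold site there. With at least 50 stops, single positions in or around C motifs passed 2-fold in both directions. Among them were A directly 3′ in HMGA1 (log2 ratio 1.287) and C 4 nt 3′ in RPS19 (-1.107).

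**Figure D3:**
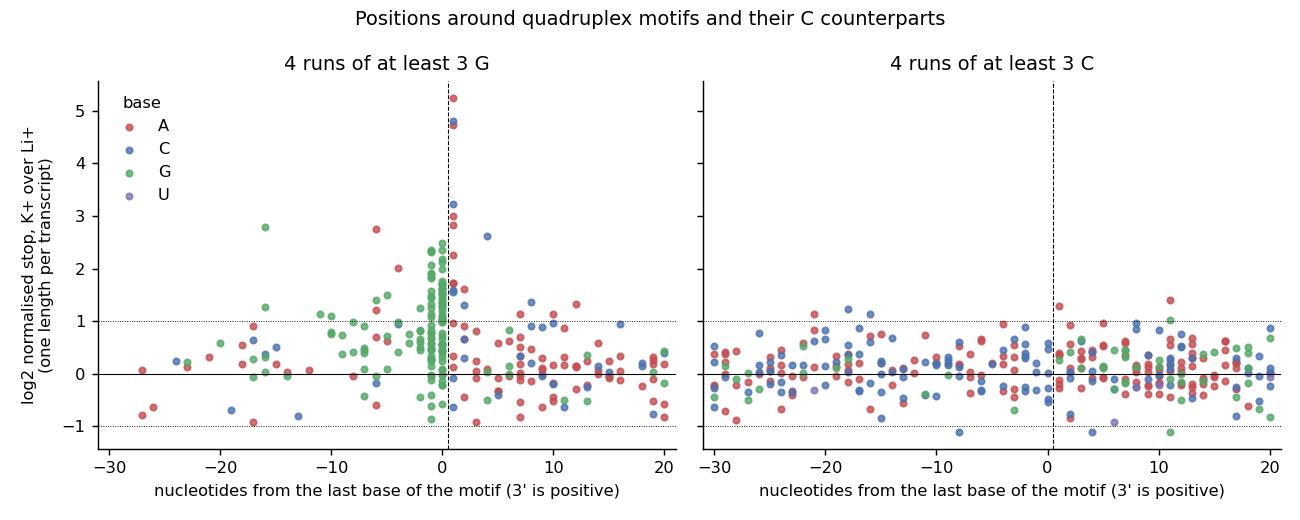
Log2 normalised stop, K+ over Li+, for positions with at least 50 stops, against the distance from the last base of the strict motif (nt, 3′ positive), coloured by base, for G motifs (left) and for the same motif in C (right). Left, most green G points at and just before 0 lie above 0, and A and C points at a distance of 1 reach the highest values; right, the points scatter about 0 at every distance.

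The K+ excess did not end at G. The A or C directly 3′ of a strict motif is the last base RT copies before it meets the motif. At 16 such positions with at least 50 stops the median log2 ratio was 1.73 (0.35 to 3.22), and 11 of 16 were 2-fold higher in K+ and 0 in Li+. With at least 100 stops 5 such positions were left, with a median of 1.73 and 3 past 2-fold. Back at 50 stops, A and C from 2 to 5 nt after the motif had 0.24 (19 positions, 3 higher). A and C in the 15 nt before the motif had -0.27 (-0.51 to 0.03, 21 positions) and no 2-fold site. A and C in the loops had 0.28 (24 positions, 3 higher), and those more than 60 nt away 0.01 (12806 positions, 108 higher in K+ and 112 in Li+).

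ERH, a small nuclear protein conserved from plants to mammals, had the largest ratio of all compared positions. C at 420 in its 3′ UTR had 131 stops in K+ and 6 in Li+, a 28.1-fold excess (12.6 to 77.9). The preceding G at 419 had 259 and 135 stops (2.47-fold) and G at 418 had 306 and 132 (2.98-fold). C at 420 was thus nearly unlisted in Li+, whereas both G kept over 100 stops there. In EEF2, the factor that moves the ribosome along mRNA, A at 2924 had 125 and 35 stops (4.82-fold, 3.29 to 7.22) and A at 2919, which follows an earlier run of the same motif, 125 and 42 (4.01-fold, 2.81 to 5.84). The last G of each run, at 2923 and 2918, had smaller ratios of 1.45 (237 and 220 stops) and 1.07 (142 and 179 stops).

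RAD23B, which helps to recognise damaged DNA, had A at 2206 with 96 stops in K+ and 40 in Li+ (3.31-fold, 2.27 to 4.92). TAF15, an RNA binding protein of the FET family, had A at 2036 with 69 and 4 (26.6-fold, 9.94 to 100). UBE2E1, a ubiquitin conjugating enzyme, had A at 894 with 56 stops in K+ and was not listed in Li+. Against 2 stops its ratio was 38.0 (10.0 to 322). IPO7, a nuclear import receptor, had A at 3467 with 82 and 16 (7.08-fold, 4.11 to 13.0). CTSZ, a lysosomal protease, had A at 1447 with 70 and 12 (8.03-fold, 4.32 to 16.3). All 5 of these sites lie in 3′ UTRs.

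These sites were chosen after their values were seen. In all, 24 A or C positions directly 3′ of a run of at least 3 G had at least 50 stops and a 2-fold excess in K+, on 23 transcripts. A made up 17 of them and C 7, 17 lay in 3′ UTRs, 14 lay at a strict motif and 18 at a permissive one, and 6 had no motif within 15 nt. These 6, in RPL4, EIF3L, SET, VDAC2, HNRNPAB and NDUFB4, had ratios of 2.08 to 2.56, whereas UBE2E1, ERH and TAF15, at strict motifs, had 26.6 or more. Among all A and C with at least 100 stops directly 3′ of runs of exactly 3 G, 5 of 375 were 2-fold higher in K+ and 2 in Li+. Directly 5′ of such runs it was 0 and 1 of 239. With at least 50 stops, on listed bases alone and each library's own length, the base directly 3′ was higher in K+ at 21 and in Li+ at 14 of 1068. After runs of 4 or more G it was 2 and 4 of 341. At that minimum and scale, 0.659% of all A were higher in K+ and 1.26% in Li+, and 1.07% and 1.79% of all C. In 16 strict motifs both the last G and the next A or C had at least 50 stops, and the next base had the larger ratio in 12 of them, with medians of 1.73 and 1.04. The minimum of 50 favours a next base that is high in either library, so the next base was also taken at any count. In the 39 of the 53 motifs where it was A or C, the medians were 1.74 and 1.06, the next base had the larger ratio in 28, and 27 were 2-fold higher in K+ and 0 in Li+. Several of these next bases had few stops, such as 7 in K+ and 3 in Li+ in DNAJC7 and 8 and 5 in FSCN1. Their single ratios carry a large counting error.

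**Figure D4:**
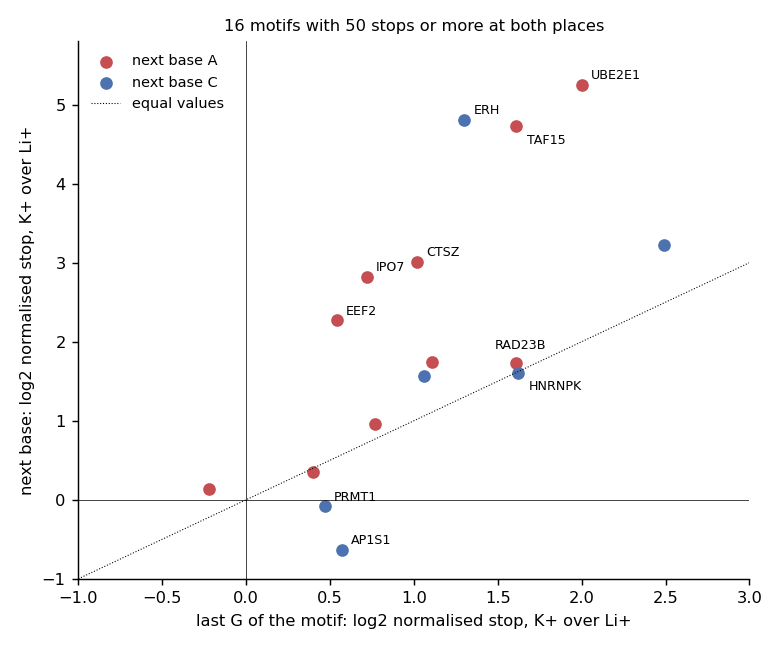
For 16 strict motifs with at least 50 stops at both places, the log2 normalised stop, K+ over Li+, at the A (red) or C (blue) that follows the motif against that at the motif's last G. In total 12 points lie above the dotted line of equal values, with UBE2E1, ERH and TAF15 highest, and PRMT1 and AP1S1 lie below 0 on the vertical axis.

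Of the 56 A and C sites higher in K+, 5 (8.93%, Wilson interval 3.87% to 19.3%) lay within 15 nt of a strict motif, 4 of them in or next to it, against 0.0580% of compared A and C. In or within 15 nt of a permissive motif lay 9 (16.1%, 8.69% to 27.8%) against 11.2%, and 47 lay farther from any motif. In the 3′ UTR were 18 of the 56 (32.1%) against 27.6% of compared A and C, a difference within the Wilson interval (21.4% to 45.2%). Directly 3′ of them stood C in 26 of 56 (46.4%, Wilson interval 34.0% to 59.3%) against 17.7% of compared A and C, and G in 2 (3.57%, 0.985% to 12.1%) against 20.8%.

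Among them were TMSB4X, which binds actin monomers (C at 225, 91 and 41 stops, 3.11-fold, 2.13 to 4.62), OAZ1, the antizyme that controls polyamine synthesis (A at 828, 176 and 90 stops, 2.69-fold, 2.08 to 3.51), and RPL4, a protein of the large ribosomal subunit, with 5 C sites between 376 and 683 from 2.00-fold to 2.56-fold, of which C at 683 directly follows a G run. OAZ1 could not be matched to a genome position. Near permissive motifs the rule named RPL37A (C at 83, 67 and 38 stops, 2.51-fold), MAGEA4 (A at 1230, 107 and 60 stops, 2.50-fold) and TMSB4X (A at 473, 90 and 55 stops, 2.30-fold). Just upstream, TMSB4X G at 471 had 205 and 130 stops (2.21-fold).

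Higher in Li+ were 69 A or C sites, 47 of them (68.1%) in coding sequence, against 65.4% of compared A and C, and none within 15 nt of a strict motif, where 0.0580% of compared A and C lay, too few for a share to be read. GAPDH, a glycolytic enzyme, had the largest ratio, at C 834 in exon 8 of 9, with 69 stops in K+ and 263 in Li+, 2.96-fold more in Li+ (2.27 to 3.92). Its neighbours A at 835 (166 and 515 stops) and C at 838 (36 and 129 stops) were also higher in Li+, but C at 837 (184 and 276 stops, log2 ratio -0.22) was not, and G at 832 had a log2 ratio of 0.71 (210 and 165 stops). RPL12, of the large ribosomal subunit, had A at 172 with 23 and 87 stops (2.92-fold more in Li+, 1.83 to 4.84). RPL4 had C at 548 with 58 and 221 (2.78-fold, 2.07 to 3.78), ERH C at 555 with 24 and 85 (2.75-fold, 1.73 to 4.53), GPX1, which reduces peroxides with glutathione, C at 836 with 22 and 83 (2.67-fold, 1.65 to 4.49), and ACTB C at 1748 with 88 and 282 (2.47-fold, 1.94 to 3.18).

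Of the 69 A and C sites higher in Li+, 28 (40.6%, Wilson interval 29.8% to 52.4%) directly followed a G, against 22.9% of compared A and C. Permissive motifs lay within 15 nt of 17 (24.6%, 16.0% to 36.0%) against 11.2%. The 4 G sites higher in Li+ were PKM, the last enzyme of glycolysis (G at 2091, 26 and 77 stops, 2.21-fold, 1.40 to 3.59), RPS16 (G at 242, 30 and 85 stops), RPL8 (G at 55, 30 and 82 stops) and RPL6 (G at 63, 27 and 76 stops), the last 3 all 2.04-fold. All 4 lie near the limit and none lies in a strict motif.

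At U no position reached 2-fold in K+. The largest ratios were 1.65 in TUBB, a tubulin (U at 1517, 84 and 65 stops, 1.18 to 2.32), and 1.60 in RPLP1, a ribosomal stalk protein (U at 216, 73 and 64 stops, 1.13 to 2.28). Higher in Li+ were 5, led by RPS20 (U at 113, 21 and 82 stops, 2.65-fold), RPS2 (U at 925, 50 and 145 stops, 2.20-fold) and RPL4 (U at 1389, 34 and 100 stops, 2.15-fold). U is not a base that DMS marks.

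The other libraries separated the G sites from the A and C sites. At the 30 G sites the median log2 of no DMS labelled K+ over no DMS labelled Na+ was -5.65, against -0.01 at all compared G. By the file names, which turn the pair, the median log2 of K+ over Na+ was 5.65, and which reading holds cannot be told from the files and labels. The -5.65 rests on strict limits. On the scale of each library's own length it was -5.69, but -0.61 with a minimum of 50 stops and -0.15 with a 1.5-fold limit, which take in many more G. The count labelled Na+ was at least 4 times that labelled K+ at 25 of 30. Those 25 were the 24 in permissive motifs and SET. The 5 others had almost equal counts without DMS, labelled K+ and Na+ in turn, of 61 and 62 at RPS3 G 804, 54 and 54 at RPS27A G 681, 93 and 82 at H2AZ1 G 491, 97 and 88 at GSTP1 G 244, and 29 and 37 at RPL11 G 439. All 5 had ratios of 2.02 to 2.20 in the refolded RNA.

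SET G at 1667 had 99 stops without DMS labelled K+ and 3815 labelled Na+, with 24 in unstressed and 118 in starved cells. APP G at 3249 had 64, 2194, 21 and 123 in the same order, RPS9 G at 614 had 33, 2418, 14 and 93, and NUCKS1 G at 1659 had 6, 1008, 3 and 19. Without DMS the stop labelled Na+ was thus far above that in refolded K+ RNA at each. The median normalised stop over the 30 G sites was 133 without DMS labelled Na+, 18.8 in K+, 6.95 in Li+ and 2.15 without DMS labelled K+. In starved over unstressed cells the median log2 ratio was 1.48 (19 sites past the minimum in those libraries), against 0.68 at all compared G. Of all compared G in these libraries, 4193 of 4900 were above 0. At the G sites the value, on the scale of each library's own length, was 1.54 and dropped to 0.93 with a minimum of 50 stops, 0.83 with a 1.5-fold limit and 0.61 when scaled by U.

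At the 56 A and C sites higher in K+, 1 had 4 times more stops without DMS labelled Na+ than labelled K+. Their median normalised stops were 3.88 in K+, 1.56 in Li+, and 0.990 and 1.15 without DMS labelled K+ and Na+. The G sites, in contrast, were highest in the library without DMS labelled Na+, whose file is named for K+. The bases directly 3′ of G runs lay between. Of the 24, 20 had more stops labelled Na+ than labelled K+, and at some strict motifs the excess was small next to that of the G beside them. ERH C at 420 had 37 and 91 stops without DMS, while G at 419 beside it had 54 and 1188 and G at 418 had 33 and 3897. TAF15 A at 2036 had 5 and 40 while G at 2035 had 16 and 1278.

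**Figure D5:**
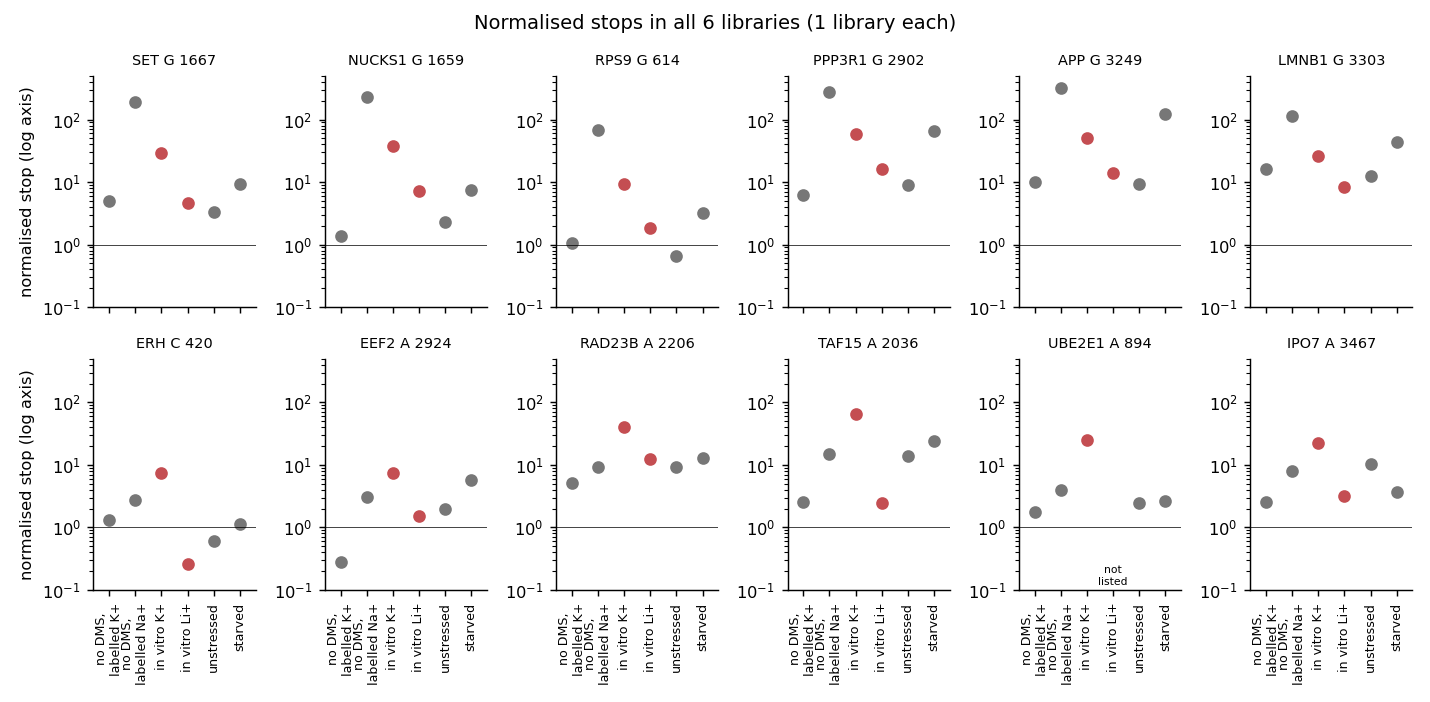
Normalised stop (log axis) in each of the 6 libraries for 6 G sites (top) and 6 A or C sites directly 3′ of G runs (bottom), with the refolded K+ and Li+ libraries in red. At the G sites the library without DMS labelled Na+ is highest, 188 in SET and 320 in APP, whereas at the A and C sites the refolded K+ library is highest, 64.8 in TAF15 and 7.38 in ERH.

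Joining called positions at most 30 nt apart gave 142 regions on 101 transcripts. Single positions made up 127 of them. Higher only in K+ were 69 regions, 25 of them within 15 nt of a motif, and only in Li+ were 70, 16 of them within 15 nt. Only 3 held both directions. The largest was RPL4 from 418 to 460, with 5 C, of which 3 were higher in K+ and 2 in Li+. RPL4, TMSB4X and CALM2, a calmodulin gene, had the most regions, with 5 each. On the scale of each library's own length there were 209 regions, the largest in UQCRQ with 60 positions from 112 to 400.

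Gene groups were described by their counts. The 87 cytosolic ribosomal protein transcripts supplied 2813 of the 4929 compared G, and 4 of these (0.142%) were 2-fold higher in K+, against 0.609% of all compared G. Their median at G was 0.06, the same as over all. At A and C they had 20 higher in K+ and 20 in Li+ of 12655 (0.158% each), near the 0.141% and 0.174% of all compared A and C. Glycolytic enzymes had 3 A or C sites higher in K+ (0.106%) and 9 in Li+ (0.317%) of 2839, and 0 G higher in K+ of 505. Actin, tubulin and vimentin had 0 and 2 of 2186 at A and C and none at 355 G.

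The 11 transcripts of rG4 helicases and binding proteins had 2 of 93 G higher in K+ (2.15%, where 0.609% of all compared G were), and 1 A or C higher in K+ and 2 in Li+ of 980. Translation factors had 1 of 446 G (0.224%), in EEF2, and 2 A or C sites higher in K+ and 7 in Li+ of 2512 (0.0796% and 0.279%). Their median at G was 0.05, and -0.36 on the scale of each library's own length. Chaperones had 1 of 134 G, in PDIA3, with 3 and 3 of 2908 A and C (0.103% each), and hnRNPs 1 of 15 G, in HNRNPK, with 1 and 1 of 710 A and C (0.141% each). SR splicing factors (188 A and C) and collagens and matrix proteins (287 A and C) had none. The 30 G sites higher in K+ lay on 27 transcripts, and no list held more than 4 of them.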

How the data were processed

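Per the methods of the study, reads were mapped to human transcripts (hg19), and the authors deposited for each library the transcript, the position, the base, the RT stop count and a ratio. The deposited counts are raw, with positions under 3 stops left out. The deposited ratio sets each count against the transcript's mean over nucleotides with that base. The mapping tool is given without a version.

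Here counts were divided by the transcript's summed count over its last listed position. Positions with at least 100 stops in K+ plus Li+ were compared as log2 ratios, an unlisted position counting as 2, and a 2-fold difference was called. With 1 library a side no test was run. Intervals are exact (Clopper-Pearson) for ratios, Wilson for shares and order statistics over positions for medians, all at 95%. Total stops per library ranged from 12999691 to 35371061.

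Listed bases were matched to GENCODE 44 transcripts (minimum identity 97%, minimum cover 80%), which placed 1970 of 2045 transcripts (96.3%). Gene names came from RefSeq accessions for 2027 and from matched bases for 10, and 8 had none. Motifs were searched on these sequences. Reads shared by paralogs may be missing or misplaced.

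Named sites were, at 1 per transcript and with at least 20 stops in each library, the 5 largest and 5 smallest ratios at G and at A or C, the 3 at U, and the 4 at A or C within 15 nt of a motif. The strongest G of 6 genes named in the study and the 3 merged regions with the most positions were added. Other sites were named after their values were seen, and a few sites and 1 sequence are not reported here. The members and gene lists were chosen with earlier results of these data known. Of the alternatives, 14 were planned and 2 were chosen after seeing the data, which were 1 transcript length for both libraries and motif search on matched sequences. The position comparison was tested on simulated data. Intervals came from scipy 1.17.1, tables from pandas 2.3.3 and numpy 2.4.6, and plots from matplotlib 3.10.9, under Python 3.11.15.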

Additional observations from a re-analysis of the deposited data

How the results depend on the processing

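No paired analysis was possible because each cation had 1 library. Values here are on the scale of each library's own last listed position unless stated, where 98 positions were higher in K+, 274 in Li+, and G took 30.6% of the former. Under the alternatives, 111 of the values that answer a comparison stayed the same and 63 moved. The order of the K+ and Li+ counts turned with 1 length for both libraries (86 and 78), with scaling by U (151 and 79) and with Li+ thinned to the depth of K+ (128 and 103). It did not turn with the deposited ratio (76 and 78) or the rebuilt mean (81 and 83). Nor did it turn with 1 length at a minimum of 50 stops (959 and 1048). The medians at A, C and G, all near 0, changed sign under some alternatives below. Of the named sites, 177 stayed the same and 38 moved, all on transcripts whose listed lengths differed. A transcript minimum of 0.25, leaving out unlisted positions and the motif search on matched sequences moved none.

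With 1 length for both libraries, the Li+ count was 78 and the medians were 0.00 at A, -0.01 at C, 0.06 at G and -0.14 at U. The deposited ratio gave 78 in Li+, 135 regions, and -0.01 at C, 0.00 at G and 0.00 at U. The transcript mean rebuilt from the deposited ratio, with counts under 3 included, gave 83 in Li+, and 0.00 at A, -0.02 at C, 0.06 at G and -0.14 at U. Scaling by the mean over U, which shifts the median of all positions to 0.10, gave 151 in K+, 79 in Li+, 0.08 at A, 0.10 at C, 0.19 at G, -0.01 at U, 0.09 in motif loops, 0.11 at A and C 3′ of motifs, and 0.61 for starved over unstressed cells at G. Setting the median to 0 gave 0.01 at A, -0.02 at C, 0.04 at G and -0.01 in loops.

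A count minimum of 200 gave 31 in K+, 52 in Li+, 48 regions, -0.02 at A, -0.06 at C and -0.03 at G. A minimum of 50 gave 985 in K+, 1707 in Li+, 1854 regions, 17.8% G, 0.00 at A, -0.02 at C, 0.04 at G, -0.19 at U, -0.61 for the pair without DMS and 0.93 for starved cells. A 1.5-fold limit gave 1249 in K+, 2124 in Li+, 1775 regions, 13.9% G, -0.15 without DMS and 0.83 for starved cells, and a 3-fold limit 27 in K+, 50 in Li+, 26 regions and 51.9% G. The strict motif, at 100 stops and searched on listed bases alone, gave 1.22 at the last G, 0.63 at 3 A or C in loops and 0.13 at A and C within 15 nt 3′ of it. Thinning Li+ to the depth of K+ gave 103 in Li+, 14.1% G and -0.03 at C. A transcript minimum of 5 gave 21.1% G, and leaving out the 20 transcripts with the most stops 0.05 at G and -0.15 at U. Apart from the length, the cause of these moves was not tested.

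With 1 library a side, a cation effect and a difference between libraries cannot be told apart. Depth allowed the last G to be compared in 22 of the 410 strict motifs at 100 stops and in 53 at 50.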
